A study of Mus musculus with 2 samples.

Results

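Cholesterol and fatty acid synthesis genes were examined in RAW264.7 cells, a mouse macrophage-like line that can form osteoclasts. The set was a list of 37 symbols chosen by function, with earlier results of these data known, and all 37 were among the 18987 genes of the count table. The data were 2 RNA-seq libraries, 1 from cells carrying a control shRNA and 1 from cells carrying an shRNA against Cpeb4, an RNA-binding protein gene. Cells of both groups were given RANKL, the cytokine that induces osteoclast formation, at 100 ng/ml, 24 h after plating at 7500 per cm2. Collection was at day 3 of RANKL per the series title. The sources used here do not give the shRNA sequences or say whether the cells were a clone or a pool.

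Cholesterol is built from acetyl-CoA in a long chain of enzymes. The mevalonate steps make isoprenoid units, which also serve protein prenylation, and later enzymes close squalene into rings and trim lanosterol to cholesterol. Fatty acids are made by acetyl-CoA carboxylase and fatty acid synthase, lengthened by ELOVL elongases, desaturated by SCD and FADS enzymes and activated by acyl-CoA synthetases. The SREBP transcription factors switch on much of both pathways. They are held in the endoplasmic reticulum by SCAP and INSIG proteins when sterols are plentiful, and are escorted by SCAP to the Golgi for cleavage when sterols are low. In osteoclasts the mevalonate enzyme farnesyl diphosphate synthase is the target of nitrogen-containing bisphosphonates.

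Total counts were 79399680 with control shRNA and 119350322 with Cpeb4 shRNA, which is 1.503 times as many. Values are given as CPM, counts per 1000000 of the library, after TMM scaling, which sets the bulk of genes to a ratio near 1. With 1 library per group there was no replicate check and no test. Each log2 ratio (Cpeb4 shRNA over control) is given with a 95% interval that covers counting error only, so differences are between these 2 libraries. The interval takes the deposited counts as read tallies, which no source used here states. Cpeb4 itself had 25270 counts, or 345 CPM, with control shRNA and 13491 counts, or 104 CPM, with Cpeb4 shRNA (log2 ratio -1.73, -1.76 to -1.70). The libraries also differed in markers of cycling cells, osteoclasts and endoplasmic reticulum stress. The 8 cycling-cell markers had a summed level of 166 CPM with control shRNA and 1943 CPM with Cpeb4 shRNA, from Mki67 at 5.03 and Ccnb1 at 4.58 to Mcm2 at 3.15 and Pcna at 2.18 on the log2 ratio scale. The 10 osteoclast markers summed to 49814 and 11299 CPM, with 9 at least 2-fold lower, from Oscar (-3.82) and Calcr (-3.49) to Ocstamp (-1.37) and Nfatc1 (-0.05). The 8 endoplasmic reticulum stress genes summed to 18613 and 2338 CPM, with 6 at least 2-fold lower, from Pdia4 (-3.99) and Ddit3 (-3.57) to Xbp1 (-0.48) and Atf4 (-0.41). The part of these shifts in the lipid gene results was not tested. In such bulk libraries, fewer cells of one kind and less RNA per cell cannot be told apart.

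The table held 9 of 10 macrophage markers, of which 7 reached a mean of 1 CPM, the filter on low values used throughout. They summed to 4776 and 2862 CPM, with Csf1r at 2736 and 1790 CPM, Lyz2 highest at a log2 ratio of 0.998 and Ptprc next at -0.13, and Tyrobp (-1.24) and Cd68 (-1.04) lowest. Adgre1, which encodes F4/80, was nearly absent, at 12 and 101 counts. None of the 6 hepatocyte or 6 adipocyte symbols was in the table, which lists genes with at least 1 count in both libraries. The adipocyte symbols Adipsin and Cfd name the same gene. Of 8 fibroblast and osteoblast symbols 4 were listed, with a summed level of 0.437 and 0.974 CPM.

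Promoters are shown for 5 members that stand for the different behaviours described below: Hmgcs1 (a sterol enzyme, lower with Cpeb4 shRNA), Insig1 (a regulator, lower), Fasn (nearly equal), and Fads2 and Elovl6 (higher). Each runs 5′ to 3′ on the gene's strand, from 250 bases before to 50 bases after the RefSeq start on GRCm38.p6. Capitals mark ATTGG or its complement CCAAT, the core bound by the factor NF-Y, and TCACNCCAC, a form of the sterol regulatory element bound by SREBPs. Hmgcs1 lies at chr13:119690101-119690400 (plus strand), Insig1 at chr5:28071162-28071461 (plus), Fasn at chr11:120824498-120824797 (minus), Fads2 at chr19:10101454-10101753 (minus) and Elovl6 at chr3:129532136-129532435 (plus).
Hmgcs1: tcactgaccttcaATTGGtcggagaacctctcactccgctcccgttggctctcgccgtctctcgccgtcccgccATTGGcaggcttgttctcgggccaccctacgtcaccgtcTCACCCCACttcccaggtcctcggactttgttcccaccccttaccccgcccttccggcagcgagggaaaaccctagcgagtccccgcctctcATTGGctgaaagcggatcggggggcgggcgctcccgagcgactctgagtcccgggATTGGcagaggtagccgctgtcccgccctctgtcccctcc
Insig1: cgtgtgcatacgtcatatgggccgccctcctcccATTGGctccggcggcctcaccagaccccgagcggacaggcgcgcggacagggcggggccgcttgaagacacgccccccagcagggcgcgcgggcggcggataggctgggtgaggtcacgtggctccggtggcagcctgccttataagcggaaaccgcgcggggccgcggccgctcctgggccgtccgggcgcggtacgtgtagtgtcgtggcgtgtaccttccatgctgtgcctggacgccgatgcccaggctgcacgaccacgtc
Fasn: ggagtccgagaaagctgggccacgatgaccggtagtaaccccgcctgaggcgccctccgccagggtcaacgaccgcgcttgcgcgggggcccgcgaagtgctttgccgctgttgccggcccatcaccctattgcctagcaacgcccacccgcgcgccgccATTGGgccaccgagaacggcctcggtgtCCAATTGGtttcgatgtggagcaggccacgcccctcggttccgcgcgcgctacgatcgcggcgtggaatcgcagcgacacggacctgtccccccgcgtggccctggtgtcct
Fads2: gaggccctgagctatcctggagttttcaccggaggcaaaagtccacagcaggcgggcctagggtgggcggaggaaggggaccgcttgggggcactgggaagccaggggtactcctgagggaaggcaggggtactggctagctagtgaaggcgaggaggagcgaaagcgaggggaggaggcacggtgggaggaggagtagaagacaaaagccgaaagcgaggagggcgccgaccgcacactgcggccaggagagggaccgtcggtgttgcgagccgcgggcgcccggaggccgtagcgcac
Elovl6: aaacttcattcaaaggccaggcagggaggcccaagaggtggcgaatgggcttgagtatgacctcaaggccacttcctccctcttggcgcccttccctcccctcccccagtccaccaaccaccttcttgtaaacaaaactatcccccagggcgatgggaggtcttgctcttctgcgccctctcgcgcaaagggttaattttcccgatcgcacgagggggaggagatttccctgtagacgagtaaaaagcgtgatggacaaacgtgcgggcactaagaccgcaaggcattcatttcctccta

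The Hmgcs1 window held the sterol regulatory element 137 bases before the start and 4 NF-Y cores, 237, 176 and 45 bases before and 10 bases after it. Insig1 held 1 NF-Y core, 216 bases before the start. Fasn held 3, at 90, 62 and 59 bases before the start, of which the last pair overlap. The Fads2 and Elovl6 windows held neither motif. Among other members above 0 under TMM scaling, Acsl5 (0.52), Acsl1 (0.38) and Elovl5 (0.15) held the NF-Y core, and Scap (0.48) did not. Acsl1 also held the sterol regulatory element. The printed windows were picked by behaviour, and whether a motif goes with a direction was not tested.

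Across the 37 genes under TMM scaling, ratios in the cholesterol branch lay below 0 and those in the fatty acid branch on both sides. With Cpeb4 shRNA 9 members were at least 2-fold lower (24.3%), against 11.8% of the 12086 genes past the filter, and 2 were at least 2-fold higher (5.41%), against 14.6%. The median log2 ratio was -0.49 over the members and 0.05 over all genes past the filter. All 37 members passed that filter, with 507 to 150777 counts in a library, and the widest counting interval spanned 0.33 log2 units. Under total-count scaling 4 of the 37 members, Insig1, Dhcr7, Ebp and Acsl3, were at least 2-fold lower, against 8.60% of all genes. The share of lower members was then close to that of all genes. There were 2 higher members, against 20.6% of all genes. The members' summed share of the library was 0.574% with control shRNA and 0.452% with Cpeb4 shRNA.

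**Figure D1:**
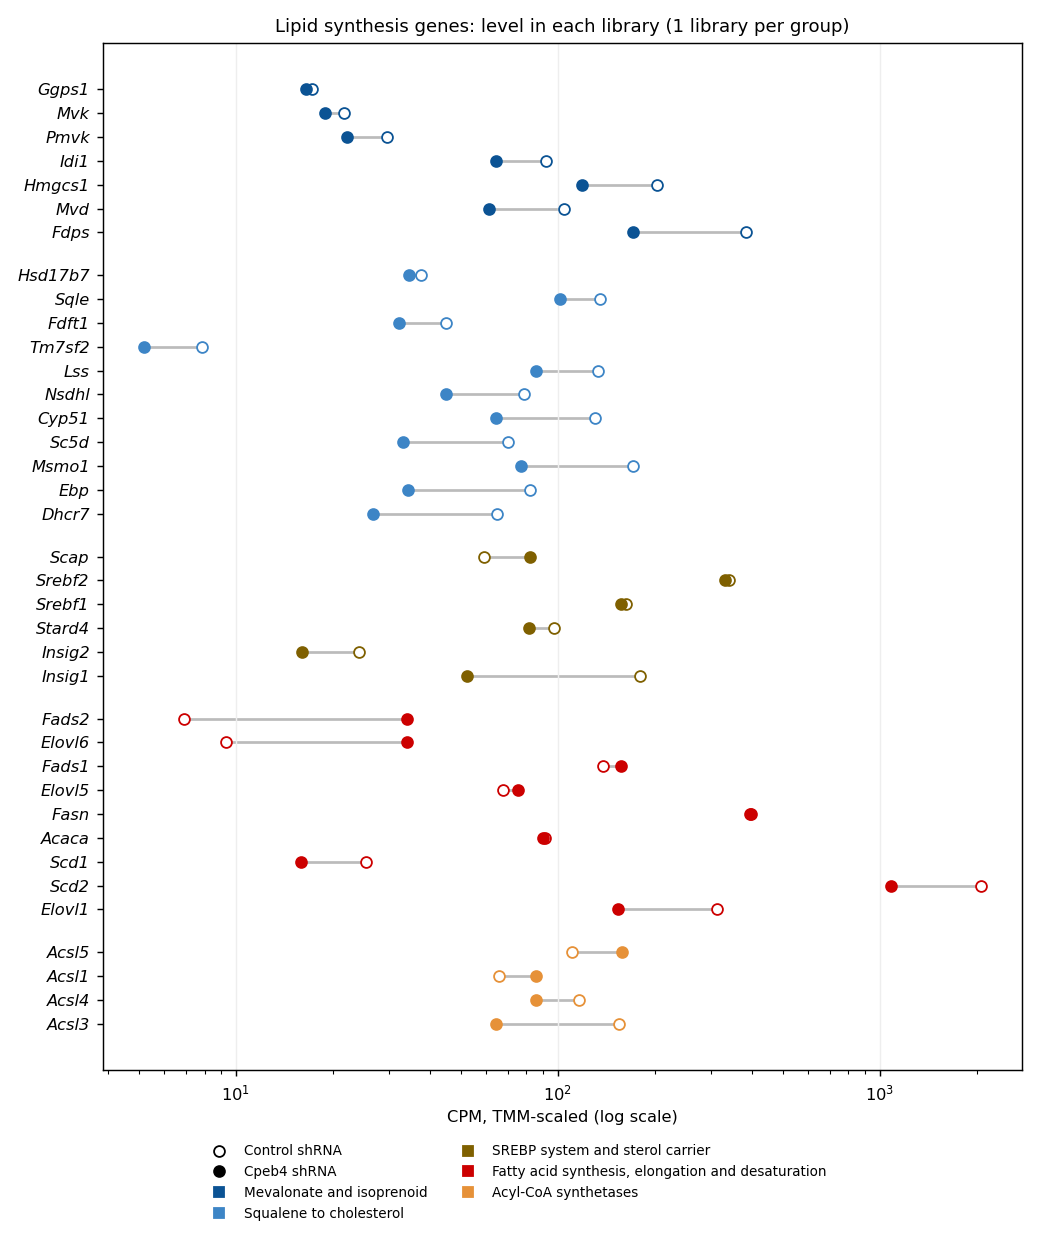
Level of each of the 37 genes in CPM (log axis), open circles for the control shRNA library and filled circles for the Cpeb4 shRNA library, coloured by role. Under TMM scaling filled circles lie to the left for every mevalonate and squalene-to-cholesterol gene (for 15 of 18 under total-count scaling), while Fads2 and Elovl6 move to the right, to 34.2 and 34.0 CPM.

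**Figure D2:**
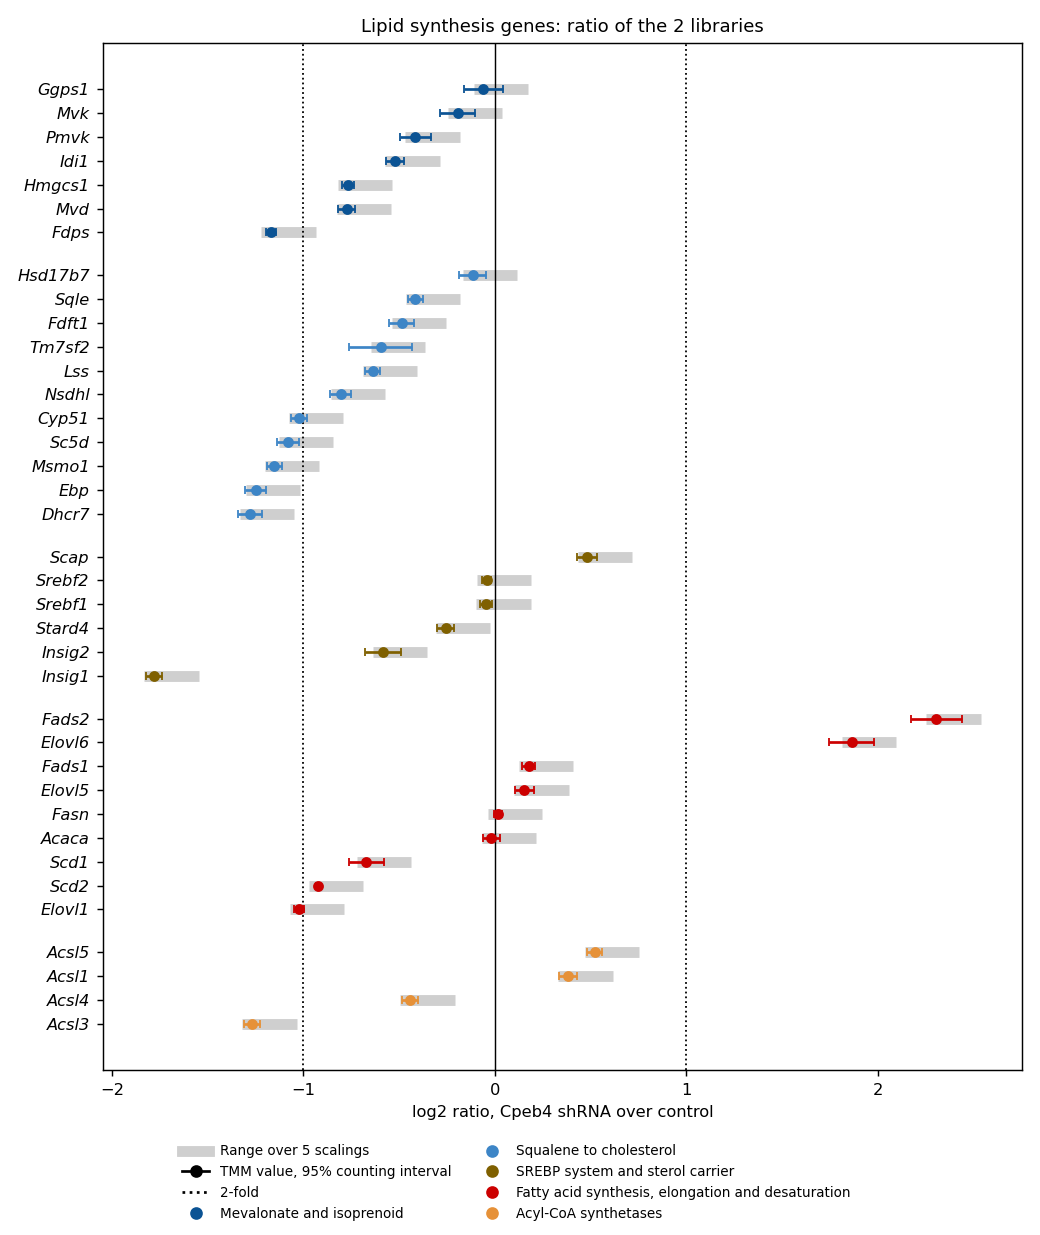
Log2 ratio of each gene (points, with 95% counting intervals) and its range over 5 scalings (grey bars), with dotted lines at 2-fold. Insig1 is the lowest point at -1.78 and Fads2 the highest at 2.30, and grey bars cross 0 for genes such as Srebf1, Srebf2, Fasn and Acaca.

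Of the 18 enzymes here called sterol enzymes 6 were at least 2-fold lower (33.3%, beside 11.8% of all genes), 12 lay within 2-fold and 0 were at least 2-fold higher. The 18 include Ggps1, whose product serves prenylation and does not lead to cholesterol. Under TMM scaling all 18 ratios were below 0, beside 47.5% of genes past the filter. They ran from -1.28 to -0.06, with a median of -0.70, and the counting interval of Ggps1 held 0. Total-count scaling, which moved each log2 ratio by 0.23, left 15 of the 18 below 0, with Mvk, Ggps1 and Hsd17b7 above it. It left 2 of the 18, Dhcr7 and Ebp, at least 2-fold lower, a share close to the 8.60% of all genes.

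In the mevalonate segment the gene furthest from 0 was Fdps, which encodes farnesyl diphosphate synthase. Fdps (ENSMUSG00000059743; mm10 chromosome 3, 89093588 to 89101959, minus strand) had 28258 counts, or 386 CPM, with control shRNA and 22201 counts, or 172 CPM, with Cpeb4 shRNA. The log2 ratio was -1.17 (-1.19 to -1.14), a 2.25-fold lower level. Hmgcs1, the synthase that makes HMG-CoA and whose promoter carried the sterol regulatory element, had 203 and 119 CPM (-0.77, -0.80 to -0.74). Mvd, the decarboxylase that yields isopentenyl diphosphate, had 105 and 61.2 CPM (-0.77). Per kilobase of exon these 3 were the most abundant of the segment with control shRNA, but per median transcript length Idi1 ranked above Hmgcs1 and Mvd.

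The other mevalonate genes had smaller differences. Idi1, the isomerase that supplies the dimethylallyl unit, had 92.2 and 64.2 CPM (-0.52). The phosphorylating enzymes came next, with Pmvk at 29.6 and 22.2 CPM (-0.42) and Mvk at 21.6 and 18.9 CPM (-0.19). Ggps1, which makes geranylgeranyl diphosphate for prenylation, was nearly equal at 17.3 and 16.6 CPM, and its counting interval of -0.16 to 0.04 held 0. Fdps and Ggps1, consecutive enzymes of isoprenoid chain building, differed in their ratios by more than their counting intervals.

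From squalene onward the 5 genes past 2-fold, Dhcr7, Ebp, Sc5d, Msmo1 and Cyp51, all act after lanosterol has formed. Dhcr7, which encodes the reductase that converts 7-dehydrocholesterol to cholesterol (ENSMUSG00000058454; mm10 chromosome 7, 143823145 to 143848410, plus strand), had 4742 counts, or 64.8 CPM, and 3450 counts, or 26.7 CPM. Its ratio was -1.28 (-1.34 to -1.22), a 2.43-fold lower level. Ebp, the sterol isomerase gene, had 81.7 and 34.4 CPM (-1.25). Sc5d, the desaturase gene that acts between those enzymes, had 69.9 and 33.1 CPM (-1.08). Msmo1, the C-4 methyl oxidase gene, had 171 and 77.1 CPM (-1.15), and Cyp51, the C-14 demethylase gene, had 131 and 64.2 CPM (-1.02, -1.07 to -0.98). Nsdhl, the C-4 decarboxylase gene, was within 2-fold at 78.5 and 44.9 CPM (-0.81).

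The other 5 genes of the segment, within 2-fold, belong to both stages: Sqle, Lss and Fdft1 act up to lanosterol, and Tm7sf2 and Hsd17b7 after it. Sqle, a rate-controlling epoxidase gene, had 136 and 102 CPM (-0.42), and Lss, the cyclase that forms lanosterol, had 133 and 85.7 CPM (-0.64). Fdft1, the squalene synthase gene, had 45.0 and 32.1 CPM (-0.49). Tm7sf2, a sterol reductase gene and per length the least abundant of the segment, was at 7.86 and 5.20 CPM (-0.60). Hsd17b7, the reductase of C-4 demethylation, was nearest to 0, at 37.5 and 34.6 CPM (-0.12, -0.19 to -0.05). The 11 genes from Fdft1 to Dhcr7 had a median of -0.81, with 5 at least 2-fold lower (45.5%, beside 11.8% of all genes). The 7 mevalonate and isoprenoid genes had a median of -0.52, with 1 at least 2-fold lower (14.3%). Under total-count scaling the counts were 2 of 11 and 0 of 7, beside 8.60%, and the medians -0.57 and -0.29.

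Some sterol genes share sequence with other genes, so their counts are uncertain. The sources used here do not say how strand and multiply aligned reads were treated. Of the 50-base words in the longest transcript, 30.7% for Fdft1, 30.5% for Idi1, 13.6% for Hmgcs1, 11.8% for Ggps1 and 11.7% for Fdps occur in another gene's transcripts. Fdft1 overlaps Ctsb, the cathepsin B gene, on the opposite strand, and Ctsb had 180095 and 91865 counts (-1.79). Without these genes the other 13 sterol enzymes were all below 0 under TMM scaling, with their median at -0.77. Of the 13, 5 were at least 2-fold lower (38.5%, beside 11.8% of all genes). Exon overlaps remain among the 13. Tm7sf2 (576 and 673 counts) overlaps Vps51 on the same strand (3699 and 7101 counts, log2 ratio 0.12). Cyp51 overlaps Akap9 on the opposite strand (8357 and 17243 counts, 0.22), and Lss overlaps a gene with 11 and 35 counts.

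Among regulators, Insig1 stood apart from the SREBP genes themselves. Insig1, which encodes a brake on SREBP processing (ENSMUSG00000045294, mm10 chromosome 5, 28071363 to 28078662, plus strand), had 13153 counts, or 180 CPM, with control shRNA. It had 6767 counts, or 52.3 CPM, with Cpeb4 shRNA, a log2 ratio of -1.78 (-1.82 to -1.74) and a 3.43-fold lower level. That was the lowest ratio of the 37 genes, and 4.43% of genes past the filter were lower still. Its paralog Insig2 had 24.1 and 16.1 CPM (-0.59, -0.68 to -0.49).

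The transcripts of the transcription factors were nearly equal. Srebf2, whose product mainly drives cholesterol genes, had 340 and 330 CPM (-0.04, -0.07 to -0.02). Srebf1, whose product mainly drives fatty acid genes, had 163 and 157 CPM (-0.05, -0.08 to -0.01). Both lay above 0 under total-count scaling. Scap, which encodes the SREBP escort, was the regulator with a ratio above 0, at 58.8 and 82.2 CPM (0.48, 0.43 to 0.53). Relative to Insig1, which makes the comparison free of scaling, Scap was 4.80-fold higher with Cpeb4 shRNA. Scap shares 13.1% of its 50-base words with 5830462I19Rik on the opposite strand, a gene with 11 and 90 counts. Stard4, a cholesterol carrier gene, had 97.4 and 81.5 CPM (-0.26).

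Fatty acid genes showed ratios in both directions. Of the 13 enzymes 2 were at least 2-fold higher (15.4%, beside 14.6% of all genes), 2 were at least 2-fold lower (15.4%, beside 11.8%) and 9 lay within 2-fold. Their median was 0.01, near the 0.05 of all genes past the filter, and ran from -0.04 to 0.25 under the other scalings. The difference between the sterol and fatty acid branches was not tested, since each gene was measured in 1 library per group.

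**Figure D3:**
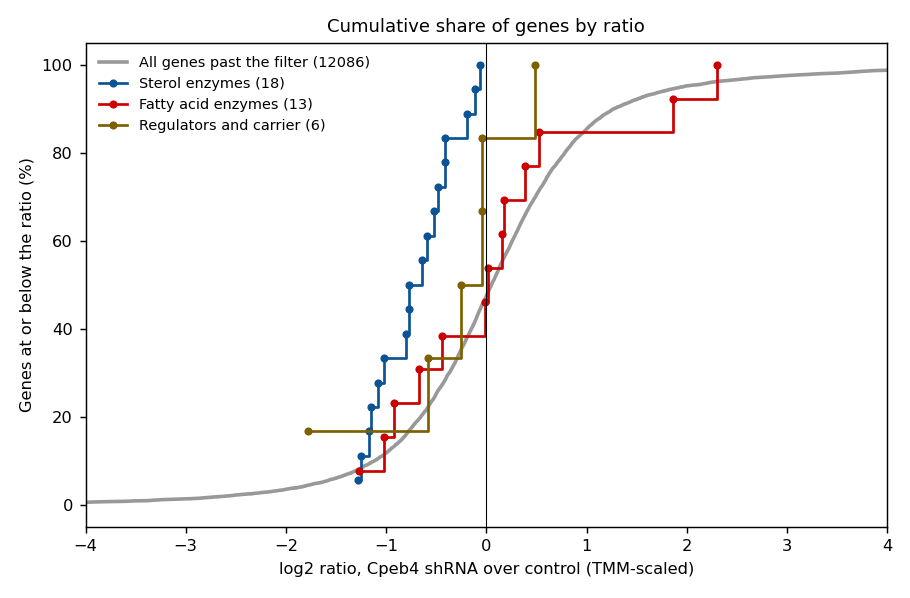
Cumulative share of genes (y axis, percent) by log2 ratio (x axis) for all 12086 genes past the filter and for the 18 sterol enzymes, 13 fatty acid enzymes and 6 regulators and carrier. Under TMM scaling the sterol curve lies wholly left of 0 (15 of 18 genes under total-count scaling), with a median of -0.70, and the fatty acid curve runs close to that of all genes, with a median of 0.01.

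The synthase and carboxylase genes of fatty acid synthesis lay near 0 under TMM scaling. Fasn, the fatty acid synthase gene, had 28905 counts, or 395 CPM, and 51590 counts, or 399 CPM (0.01, -0.01 to 0.04). Acaca, which encodes acetyl-CoA carboxylase, had 91.2 and 90.1 CPM (-0.02, -0.06 to 0.03). Both intervals held 0 under TMM scaling, but the call rests on the scaling. Under total-count scaling Fasn was at 0.25 and Acaca at 0.215, and under reference-gene scaling they were at -0.04 and -0.07, all outside the intervals above. Acaca shares 52.6% of its 50-base words with the pseudogene Gm5182, so its count is uncertain. Relative to Fdps, Fasn was 2.27-fold higher with Cpeb4 shRNA.

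Genes of polyunsaturated fatty acid synthesis had ratios above 0, and Fads2 had the highest of the 37. Fads2, the delta-6 desaturase gene (ENSMUSG00000024665; mm10 chromosome 19, 10062765 to 10101746, minus strand), had 507 counts, or 6.92 CPM, with control shRNA and 4420 counts, or 34.2 CPM, with Cpeb4 shRNA. The log2 ratio was 2.30 (2.17 to 2.44), a 4.93-fold higher level, and 96.2% of genes past the filter had a lower ratio. Its neighbour Fads1, the delta-5 desaturase gene, had 139 and 157 CPM (0.18, 0.14 to 0.21). Elovl5, which elongates polyunsaturated chains, had 67.5 and 75.0 CPM (0.15, 0.10 to 0.20). Per length Fads1 was the more abundant desaturase transcript in both libraries, at 28.8 and 32.6 CPM per kilobase of exon, against 2.10 and 10.4 for Fads2.

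The elongases of saturated and monounsaturated chains went opposite ways. Elovl6, which extends palmitate to stearate (ENSMUSG00000041220; mm10 chromosome 3, 129532355 to 129638495, plus strand), had 684 counts, or 9.34 CPM, and 4394 counts, or 34.0 CPM. Its ratio was 1.86 (1.75 to 1.98), a 3.64-fold higher level. Elovl1, which makes very long saturated chains, had 22888 counts, or 313 CPM, and 19916 counts, or 154 CPM (-1.02, -1.05 to -0.99), a 2.03-fold lower level. Relative to Elovl1, Elovl6 was 7.38-fold higher with Cpeb4 shRNA. Elovl1 overlaps Cdc20, a mitotic gene on the opposite strand with 585 and 14861 counts, and 0.227% of its 50-base words occur in other genes.

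The stearoyl-CoA desaturases, which place the first double bond, were lower with Cpeb4 shRNA. Scd2, per kilobase of exon the most abundant of the 37 genes in both libraries, had 150777 counts, or 2059 CPM, and 140609 counts, or 1087 CPM (-0.92, -0.93 to -0.91). It held 33.1% of the members' counts with control shRNA and 26% with Cpeb4 shRNA. Scd1, the form that dominates in liver and fat, had 25.3 and 15.9 CPM (-0.67, -0.76 to -0.58). Scd1 and Scd2 share 4.66% and 4.01% of their 50-base words with other genes, chiefly each other and Scd3. The few Scd1 counts beside the many of Scd2 are therefore uncertain.

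Acyl-CoA synthetases, which activate fatty acids for use, split by isoform. Acsl3, a form tied to lipid droplets, had 11390 counts, or 156 CPM, and 8352 counts, or 64.5 CPM (-1.27, -1.31 to -1.23), a 2.41-fold lower level. Acsl4, which prefers arachidonate, had 116 and 85.6 CPM (-0.44). Acsl5 had 111 and 159 CPM (0.52, 0.48 to 0.56) and Acsl1 had 65.5 and 85.4 CPM (0.38), both higher with Cpeb4 shRNA. Relative to Acsl3, Acsl5 was 3.46-fold higher with Cpeb4 shRNA.

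Because scaling cancels within a library, the shares of related genes describe these shifts without it. Per kilobase of exon, Acsl5 made up 26.4% of the ACSL members' summed level with control shRNA and 45.7% with Cpeb4 shRNA, and Acsl3 made up 41.4% and 20.8%. Fads2 made up 6.79% and 24.1% of the Fads1 and Fads2 sum. Insig2 made up 10.7% and 21.5% of the Insig sum. By contrast Scd2 held 98.6% and 98.4% of the Scd1 and Scd2 sum, and Srebf1 held 37.9% and 37.8% of the Srebf sum. Shares of Elovl1, Elovl5 and Elovl6 went from 84.8%, 14.2% and 1.07% to 68.0%, 25.7% and 6.36%. The shares themselves depend on the length used, a check added after seeing the data. Per median transcript length Insig2 made up 31.0% and 50.6%, Acsl5 40.7% and 58.5%, Elovl5 26.8% and 43.0%, Scd2 94.1% and 93.1%, and Srebf1 55.7% and 55.6%. Acsl4 had 25.0% and 22.2% per kilobase of exon, but 4.21% and 3.10% by that length.

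**Figure D4:**
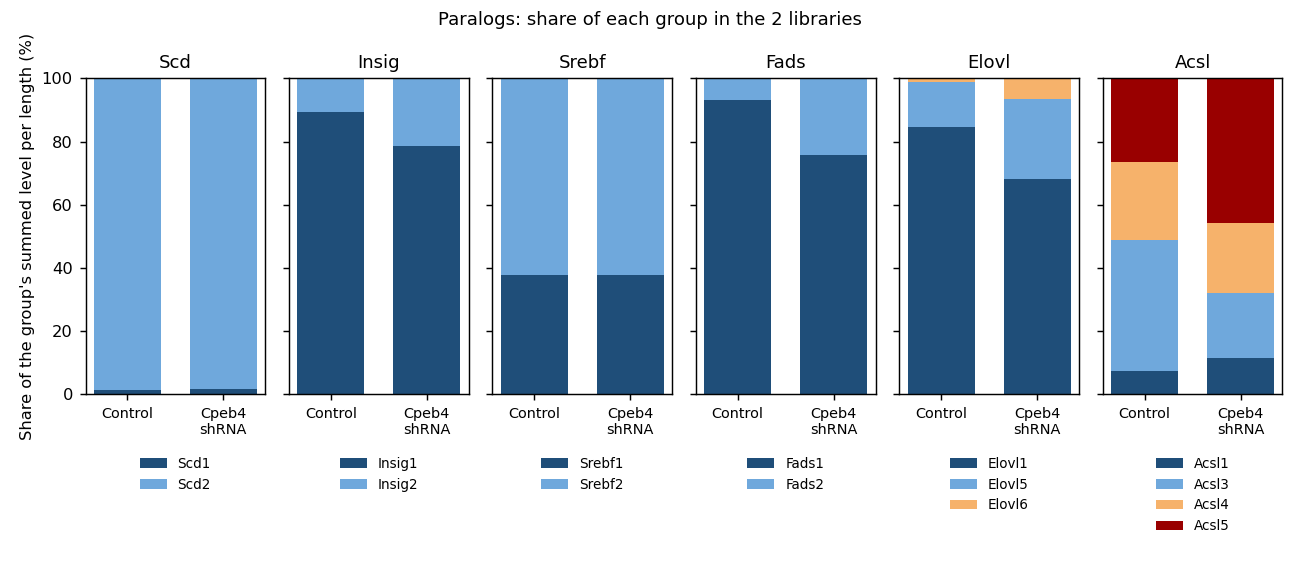
Share (percent) of each related gene in its group's summed level per kilobase of exon, for the control and Cpeb4 shRNA libraries, 1 library each. The Srebf and Scd bars are nearly alike in both libraries, while Fads2, Insig2, Elovl5, Elovl6 and Acsl5 take larger shares with Cpeb4 shRNA.

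Per length, the order of members with control shRNA began with Scd2 at 377, Elovl1 at 115, Fdps at 91.7 and Insig1 at 58.1 CPM per kilobase of exon. With Cpeb4 shRNA it began with Scd2 at 199, Elovl1 at 56.5, Srebf2 at 46.0 and Fdps at 40.8. Insig1 went from rank 4 to rank 14 of 37, and Acsl5 from rank 18 to rank 7. Elovl6 had the lowest level of the 37 with control shRNA (1.45) and Tm7sf2 with Cpeb4 shRNA (1.18). Ranks depend on the length used. With the median transcript length Scd2 and Fdps kept ranks 1 and 3 with control shRNA, but 6 of the 10 highest remained in that group.

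Other genes of the same pathways, none of them members, were within 2-fold for the most part. Of 14 further sterol and isoprenoid genes past the filter 9 lay above 0 and 5 below (35.7%, beside 47.5% of all genes past the filter). The median of the list was 0.17. In this list 1 was at least 2-fold lower (7.14%, beside 11.8% of all genes) and 0 were higher (beside 14.6%). Nus1, a subunit of the dolichol-making prenyltransferase, was lowest, at 612 and 283 CPM (-1.11). Pdss1, for ubiquinone side chains, was highest at 16.2 and 26.9 CPM (0.73), followed by the farnesyltransferase gene Fntb at 10.9 and 16.5 CPM (0.60).

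Of 13 further regulators 0 passed 2-fold in either direction, beside 11.8% of all genes lower and 14.6% higher. The median of these regulators was -0.07, or 0.16 under total-count scaling. Mbtps1, a protease that cleaves SREBPs, was highest at 117 and 157 CPM (0.43), and Gpam, an acyltransferase gene, followed at 0.37. Mlx, the partner of carbohydrate-response factors, was lowest at 70.2 and 39.3 CPM (-0.84).

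Of 18 further fatty acid genes 17 were below 0 (94.4%, beside 47.5% of all genes past the filter), and the median of the list was -0.59. In this list 2 were at least 2-fold lower (11.1%, beside 11.8% of all genes) and 0 were higher (beside 14.6%). Under total-count scaling 14 were below 0, with a median of -0.35. The member list and this list of fatty acid genes therefore differ in their medians. Me1, the malic enzyme that supplies NADPH, was lowest at 155 and 46.5 CPM (-1.74), followed by Scd3 at 24.0 and 10.7 CPM (-1.17). Acly, which supplies cytosolic acetyl-CoA, was the exception above 0, at 342 and 374 CPM (0.13), with Hacd4 next at -0.10. The most closely related set, 19 genes of lipid uptake, efflux and storage, had a median of -0.66. There 6 were at least 2-fold lower (31.6%, beside 24.3% of the members and 11.8% of all genes). Only 1 was at least 2-fold higher (5.26%, beside 5.41% of the members and 14.6% of all genes). In that set Apoe (-2.33) and the cholesterol exporter gene Abca1 (-1.61) were lowest, and the fatty acid receptor gene Cd36 (2.25) and the carrier gene Fabp5 (0.11) highest.

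Promoter sequence, which played no part in choosing the genes, was matched by symbol for 30 members and for 8791 genes past the filter. Fdps, Fdft1, Sqle, Stard4, Scd1, Scd2 and Fads1 had no entry. Motifs were searched on both strands, and a gene counted if any of its starts held a match. The NF-Y core ATTGG was found in 25 of 30 members (83.3%), against 43.8% of genes past the filter and 37.4% of all 32851 promoters. It was present in all 15 sterol enzymes with an entry, in 4 of 5 regulators and in 6 of 10 fatty acid enzymes. Per start rather than per gene it was in 65.0% of the members' starts and 38.5% of those of genes past the filter.

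The 5 members without the NF-Y core were Fads2, Elovl6, Scap, Acaca and Acsl4, with log2 ratios from -0.44 to 2.30 and a median of 0.48. The 25 with it ran from -1.78 to 0.52, with a median of -0.60. They include all 15 sterol enzymes with an entry, so core and branch cannot be told apart in these medians. Over all genes past the filter the medians with and without the core were 0.04 and 0.02. The GC box GGGCGG was in 76.7% of members and 69.9% of genes past the filter, and the E-box CACGTG in 6 of 30 members and 12.2% of those genes. The sterol regulatory element form TCACNCCAC was in Hmgcs1 and Acsl1 (6.67%), against 1.35% of genes past the filter. A direct repeat of AGGTCA with 4 bases between, the form bound by LXR, was in 0 members and 0 genes past the filter. A match describes these letters in this window and is not evidence of binding. Among members 1 NF-Y core overlapped a GC box, in Elovl1.

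**Figure D5:**
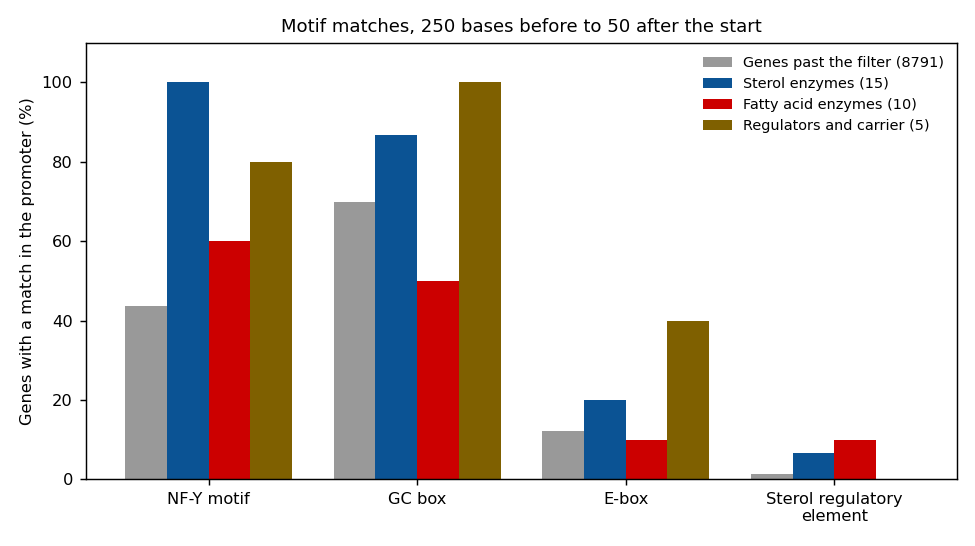
Share of genes (percent) with a motif match between 250 bases before and 50 bases after the start, for 8791 genes past the filter, 15 sterol enzymes, 10 fatty acid enzymes and 5 regulators. The NF-Y motif is in 100% of the sterol enzymes, 60.0% of the fatty acid enzymes and 43.8% of genes past the filter.

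Since CPEB proteins bind U-rich elements in 3′ UTRs, the elements TTTTAT and TTTTAAT were counted in the longest annotated 3′ UTR of each gene on the transcript's strand. At least 1 was present in 22 of 37 members (59.5%) and in 62.7% of 10512 genes past the filter. Density was 1.06 per kilobase in members and 1.33 per kilobase in genes past the filter, whose median 3′ UTR lengths were 1574 and 1176 bases. Members with an element had a median log2 ratio of -0.55 and those without one a median of -0.42, while over all genes past the filter these medians were 0.07 and -0.05. Median 3′ UTR length was 1832 bases in members with an element and 497 bases in those without.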

How the data were processed

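The deposited table holds whole-number counts per gene, with 1 column per library. Reads were aligned with HISAT2 to mm10, per the submitters' processing notes. The sources used here do not give the counter, strand setting or annotation. Genes listed at 4 counts (585 with control shRNA, 364 with Cpeb4 shRNA) outnumber those at 3 (444, 282) and at 5 (286, 205), so the values may be derived from coverage rather than tallied read by read. Every listed gene has at least 1 count in both libraries, so genes seen in 1 library are not analysed here.

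Libraries were scaled with TMM in edgeR 4.0.16 (R 4.3.3), and CPM is relative to the effective library size. The filter kept 12086 of 18987 genes, those whose mean reached 1 CPM. Calls used 2-fold, with no test. Intervals are exact Clopper-Pearson intervals of the share of the 2 counts, computed with SciPy 1.17.1. They cover counting error only, would be wrong in width if the values are not read tallies, and ignore that PCR copies are not independent molecules. Relative statements between genes are differences of log2 ratios. Positions, exon-union lengths and 3′ UTRs came from GENCODE M21 (GRCm38, the assembly of mm10; 18935 genes matched), and promoters from RefSeq on GRCm38.p6.

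All 37 members were reported, with the 2 highest and 2 lowest of each other list. Some genes that this rule names are not reported here. Members and lists were chosen with earlier results of these data known. Calculations were tested on simulated counts. Alternatives were total-count, DESeq2 1.42.0, upper-quartile and reference-gene scaling, pseudocounts, filters, other thresholds and transcript length.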

Additional observations from a re-analysis of the deposited data

How the results depend on the processing

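No paired analysis was possible because there was only 1 library on each side. Under total-count scaling, a shift of 0.23, 4 of 37 members were at least 2-fold lower in place of 9, beside 8.60% of all genes in place of 11.8%. Medians were -0.25 for all members, -0.47 for sterol enzymes, 0.25 for fatty acid enzymes and 0.081 for regulators and carrier. Cpeb4 was then at -1.49. Scaling to 20 reference genes, whose own ratios ran from -1.96 to 1.93, moved ratios by -0.05. At 1.5-fold 17 of 37 members were lower, and at 4-fold 1 was higher and 0 were lower. Over the 12086 genes past the filter, 3191 were higher and 2674 lower at 1.5-fold, and 582 and 426 at 4-fold. Counts of genes 2-fold higher and lower were 3217 and 2930 with all genes kept, and 1025 and 907 for a minimum mean of 10 CPM. The construction of thresholds and filters sets those changes. With the median transcript length 6 of the 10 highest members in the control library remained among them, and the cause was not tested. Total-count scaling changed the sign of 6 members within 2-fold (Mvk, Ggps1, Hsd17b7, Srebf1, Srebf2 and Acaca), and DESeq2, upper-quartile and reference-gene scaling each that of Fasn. Leaving out members that share over 10% of 50-base words, chosen after seeing the data, left 30 members with a median of -0.51. Of these 8 were at least 2-fold lower (26.7%, beside 11.8% of all genes) and 2 higher (6.67%, beside 14.6%).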
